A study of Mus musculus with 13 samples.

Results

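The Hox genes are the mouse homeobox genes of the 4 clusters Hoxa, Hoxb, Hoxc and Hoxd. Members were taken by symbol alone, as every gene in the bulk table named Hoxa, Hoxb, Hoxc or Hoxd plus a number, so that no measured value entered the choice. There were 39 such genes among 24411 in the table: 11 in Hoxa, 10 in Hoxb, 9 in Hoxc and 9 in Hoxd. All samples came from hindlimb skeletal muscle of wild-type C57BL/6 mice aged 2 months. The bulk groups were freshly sorted smooth-muscle/mesenchymal-like cells (fresh SMMC, CD31-CD45-Sca1-VCAM1-ITGA7+, 3 libraries), the same sorted cells proliferating after 3 days of culture (proliferating SMMC, 3 libraries), the same cells put to differentiate (differentiating SMMC, 3 libraries) and muscle stem cells sorted as VCAM1+ in place of VCAM1- (MuSC, 2 libraries). Their RNA was amplified by the Smart-seq2 method, and levels are in FPKM (fragments scaled by transcript length and library size). The last group was 2 droplet single-cell libraries of all mononuclear cells of uninjured muscle, with levels in unique molecular identifiers (UMIs). The labels do not say whether replicates came from separate mice, so p-values measure the spread between libraries, which may be technical.

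Hox proteins are transcription factors that give cells their position along the body axis. Within a cluster the genes stand in the order of their paralogous groups, and in the embryo the low-numbered (3′) genes are active early and towards the head, the high-numbered (5′) genes later and towards the tail. In the limb bud the 5′ genes of the Hoxa and Hoxd clusters pattern the segments from shoulder or hip to digits. Adult fibroblasts, vessels and muscle keep Hox patterns of their site of origin, and Polycomb and Trithorax group proteins hold these genes off or on.

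In the mouse assembly GRCm38.p6, as annotated by RefSeq, the Hoxa genes lie on chromosome 6 between 52155367 and 52260880, the Hoxb genes on chromosome 11 between 96194316 and 96368254, the Hoxc genes on chromosome 15 between 102921131 and 103036856 and the Hoxd genes on chromosome 2 between 74668225 and 74765142. Promoter sequences from RefSeq were matched by symbol for 22 of the 39 members, in 24 windows. The 250 bases before the annotated start are printed for members that moved together: Hoxa9, Hoxa10 and Hoxa11, which rose in culture, Hoxa3 and Hoxa5, which fell, and Hoxb4, the member with most UMIs in endothelial-like cells. Each is written 5′ to 3′ on the strand of the gene, and capitals mark matches, on either strand, to the CCAAT box, the TATA box written TATAAA, the Meis core TGACAG, the Pbx and Hox core TGATTNAT and the 5′ Hox and Cdx core TTTATNG. The Hoxa10 window is 1 of the 2 that RefSeq gives for the gene.
Hoxa9 promoter, chr6:52227371-52227620, minus strand: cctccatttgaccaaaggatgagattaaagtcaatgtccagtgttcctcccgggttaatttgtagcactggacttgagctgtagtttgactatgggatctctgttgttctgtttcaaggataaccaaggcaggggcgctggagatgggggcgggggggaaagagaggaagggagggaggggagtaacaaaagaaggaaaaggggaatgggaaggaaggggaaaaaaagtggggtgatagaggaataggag
Hoxa10 promoter, chr6:52234940-52235189, minus strand: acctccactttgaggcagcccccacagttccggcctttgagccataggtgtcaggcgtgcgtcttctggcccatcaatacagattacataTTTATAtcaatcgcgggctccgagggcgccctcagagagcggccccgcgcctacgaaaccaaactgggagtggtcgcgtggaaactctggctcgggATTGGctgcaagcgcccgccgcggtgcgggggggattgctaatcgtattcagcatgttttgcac
Hoxa11 promoter, chr6:52245811-52246060, minus strand: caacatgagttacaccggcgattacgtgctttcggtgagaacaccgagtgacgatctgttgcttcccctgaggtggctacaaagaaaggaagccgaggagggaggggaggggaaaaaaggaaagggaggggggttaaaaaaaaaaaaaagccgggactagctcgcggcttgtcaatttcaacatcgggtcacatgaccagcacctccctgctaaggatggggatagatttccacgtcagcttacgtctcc
Hoxa3 promoter, chr6:52213068-52213317, minus strand: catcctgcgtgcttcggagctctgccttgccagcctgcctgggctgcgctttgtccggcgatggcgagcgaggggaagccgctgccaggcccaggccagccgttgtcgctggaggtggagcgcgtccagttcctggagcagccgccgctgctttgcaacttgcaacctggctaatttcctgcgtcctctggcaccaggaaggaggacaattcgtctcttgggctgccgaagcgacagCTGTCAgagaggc
Hoxa5 promoter, chr6:52204588-52204837, minus strand: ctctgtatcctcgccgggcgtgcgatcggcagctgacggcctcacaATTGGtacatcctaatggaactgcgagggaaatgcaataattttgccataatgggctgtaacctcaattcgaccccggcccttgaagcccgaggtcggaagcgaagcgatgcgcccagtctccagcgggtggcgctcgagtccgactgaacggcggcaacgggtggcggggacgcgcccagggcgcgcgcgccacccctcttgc
Hoxb4 promoter, chr11:96318017-96318266, plus strand: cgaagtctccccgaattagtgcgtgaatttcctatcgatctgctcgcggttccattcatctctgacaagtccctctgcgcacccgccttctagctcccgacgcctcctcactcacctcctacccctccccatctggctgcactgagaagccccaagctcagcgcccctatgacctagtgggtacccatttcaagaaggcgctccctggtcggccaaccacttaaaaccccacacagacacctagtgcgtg
Of the windows printed, that of Hoxa10 held CCAAT and TATAAA, that of Hoxa5 held CCAAT, that of Hoxa3 held TGACAG, and those of Hoxa9, Hoxa11 and Hoxb4 held none of the 5 motifs. Over the same 250 bases in all 32851 promoter windows of the table, 33.85% held CCAAT, 12.37% TATAAA, 15.86% TGACAG, 2.82% TGATTNAT and 9.81% TTTATNG; among the 24 Hox windows the numbers were 14, 4, 2, 2 and 2. TATAAA and TTTATNG overlapped in Hoxb8, and TATAAA overlapped itself in Hoxd13. The Hox windows had a median of 12.5 CG dinucleotides, against 6 in all windows; the printed windows ranged from 3 in Hoxa9 to 28 in Hoxa5. A match describes letters in a window and is not evidence of binding.

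The sorted groups were checked against their defining markers. Vcam1 lay between 18.5 and 24.9 FPKM in fresh SMMC, against 95.5 and 143 FPKM in MuSC, and Ptprc (CD45) was at most 0.148 FPKM in all 11 libraries. Pecam1 (CD31) and Ly6a (Sca1), genes of the negative gates, had 12.01 to 19.7 and 9.51 to 19.9 FPKM in fresh SMMC, against at most 1.84 and 0.688 FPKM in MuSC. Fresh SMMC carried markers of several other cells of muscle, all at higher summed levels than in MuSC: 12 tenocyte genes summed to 9400 to 19455 FPKM (15.3 and 25.2 FPKM in MuSC), 10 pericyte genes to 3265 to 8565 FPKM (354 and 363 FPKM), 12 fibro-adipogenic progenitor (FAP) genes to 4011 to 6930 FPKM (871 and 1086 FPKM), 12 Schwann genes to 326 to 529 FPKM (8.44 and 10.9 FPKM), 12 endothelial genes to 243 to 393 FPKM (17.7 and 19.3 FPKM) and 11 macrophage or dendritic genes to 120 to 526 FPKM (27.7 and 38.2 FPKM). After 3 days of culture the tenocyte sum was 12.6 to 26.0 FPKM, the pericyte sum 11.4 to 20.9 FPKM, the FAP sum 41.7 to 51.7 FPKM, the Schwann sum 15.5 to 31.9 FPKM, the endothelial sum 5.14 to 8.02 FPKM and the macrophage or dendritic sum 2.04 to 2.75 FPKM. The 10 smooth muscle genes summed to 1341 to 1997 FPKM in fresh SMMC, against 62.2 and 118 FPKM in MuSC. Their sum was 640 to 893 FPKM in proliferating SMMC and 1163 to 1661 FPKM in differentiating SMMC. The 12 MuSC genes summed to 1452 to 1617 FPKM in proliferating SMMC, 572 to 755 FPKM in fresh SMMC, and 2441 and 3521 FPKM in MuSC. In bulk samples, fewer cells of a type and less RNA per cell cannot be told apart.

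The limb muscle cells carried a Hox profile of mainly high-numbered genes of the Hoxa and Hoxc clusters. The summed level of the 39 members was 58.6, 84.8 and 119 FPKM in fresh SMMC, 123, 119 and 106 FPKM in proliferating SMMC, 76.7, 70.2 and 75.4 FPKM in differentiating SMMC, and 28.3 and 31.7 FPKM in MuSC. All SMMC libraries lay above both MuSC libraries, and the fresh ones differed most among themselves. Hoxc10 was the highest member in both MuSC libraries, at 13.9 and 16.2 FPKM, and Hoxc members made up 64.2% and 69.3% of the MuSC sum. In fresh SMMC the first 5 places by mean level went to Hoxc10, Hoxa9, Hoxa5, Hoxa10 and Hoxc9. Hoxb1, Hoxb13, Hoxd1 and Hoxd12 were listed at 0 in every library.

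Paralogous groups 9 to 13 made up 55.7% to 66.8% of the summed Hox level in fresh SMMC, 88.2% to 91.1% in proliferating SMMC, 76.0% to 79.8% in differentiating SMMC, and 72.6% and 78.2% in MuSC. Groups 1 to 3 made up 7.27% to 14.04% in fresh SMMC, 1.36% to 2.83% in proliferating SMMC, 2.34% to 4.76% in differentiating SMMC, and 1.36% and 1.22% in MuSC. The proliferating libraries thus held the highest share of the 5′ genes and did not overlap with any other group. The share of the Hoxb cluster was 6.48% to 7.92% in fresh SMMC and at most 1.79% in all other libraries.

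**Figure D1:**
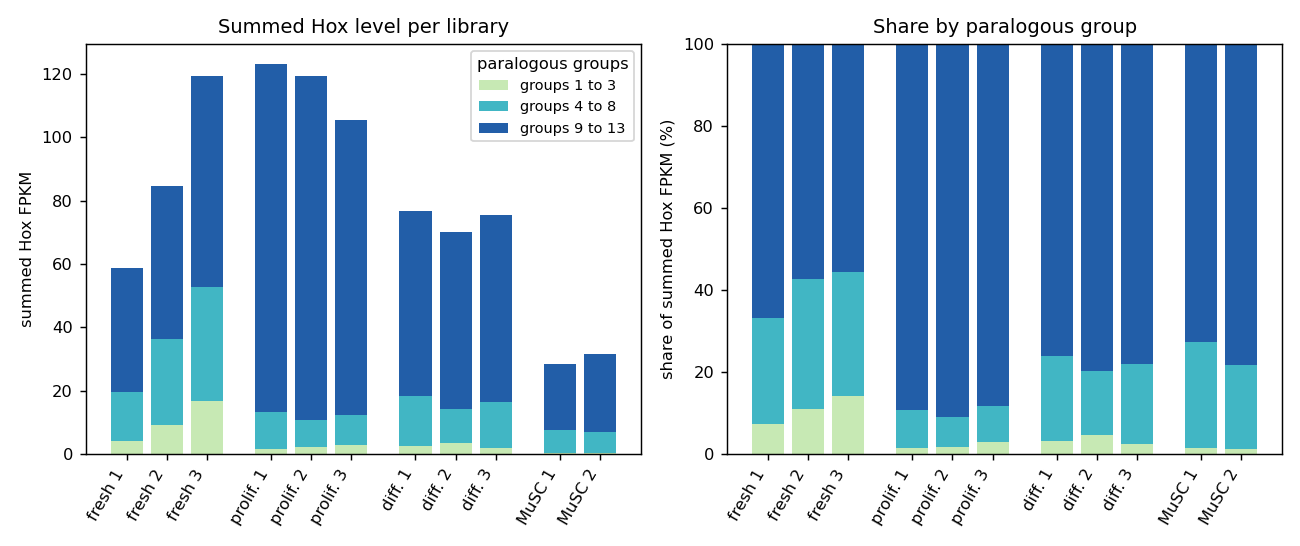
Left, summed FPKM of the 39 Hox genes in each bulk library, stacked by paralogous group; right, the same as a share of the sum. Fresh, prolif. and diff. are SMMC, and each bar is 1 library; groups 9 to 13 take at least 88.2% in the 3 proliferating libraries.

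Of the 39 members, 19 reached 1 FPKM in at least 2 libraries and were tested: 7 of 11 in Hoxa, 1 of 10 in Hoxb (Hoxb2), 8 of 9 in Hoxc and 3 of 9 in Hoxd. By position, 4 of 8 members of groups 1 to 3, 7 of 15 of groups 4 to 8 and 8 of 16 of groups 9 to 13 were tested. The other 20 members stayed low. The highest value among them was 2.13 FPKM, for Hoxa2 in fresh SMMC replicate 3. Among those tested, Hoxa3, Hoxb2 and Hoxc4 reached 1 FPKM in fresh SMMC alone. Hoxc13 reached it in proliferating and differentiating SMMC alone. The direction of these members in comparisons of those groups is therefore not independent of the filter. A member called here has an adjusted p under 0.05 in limma on log2(FPKM + 1), with Benjamini-Hochberg adjustment over all 13233 genes tested, and log2 differences are on that scale, which understates the change of low genes.

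The comparison of fresh SMMC with MuSC asks how the VCAM1- fraction differs from stem cells of the same muscle. In fresh SMMC 13 members rose and 0 fell; over all genes, 41.7% were called higher and 18% lower, 59.7% in both directions, and the median log2 difference of all genes was 0.45. Among those that rose were Hoxa3, Hoxa5, Hoxa7, Hoxa9, Hoxa10, Hoxa11, Hoxb2, Hoxc6, Hoxc9, Hoxc11, Hoxd3 and Hoxd9. The 19 tested members had a median log2 difference of 1.10, and 18 of them were positive. At an unadjusted p under 0.05, 15 passed.

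Hoxa9, a 5′ gene that acts in limb buds and in blood progenitors, had 6.51, 10.1 and 22.6 FPKM in fresh SMMC, against 1.95 and 1.73 FPKM in MuSC. All fresh libraries exceeded both MuSC libraries, and the log2 difference was 2.14 ± 0.40 (SE; limma adjusted p = 0.000561). Hoxa5, which patterns the neck and upper thorax, had 5.31, 9.70 and 10.1 FPKM in fresh SMMC, against 0.458 and 1.43 FPKM in MuSC (log2 difference 2.27 ± 0.46, limma adjusted p = 0.00103). Hoxc9, a thoracic-level gene, had 4.60, 5.56 and 6.25 FPKM in fresh SMMC, against 1.70 and 1.66 FPKM in MuSC (log2 difference 1.26 ± 0.25, limma adjusted p = 0.000849). For these members the groups did not overlap. Hoxa10, a gene of the thigh and uterus, had 6.32, 11.04 and 5.48 FPKM in fresh SMMC, against 2.68 and 4.69 FPKM in MuSC, and its log2 difference of 0.86 ± 0.29 (limma adjusted p = 0.021) was the smallest of those called. The call of Hoxa10 was lost without MuSC replicate 1 (limma adjusted p = 0.207) without fresh SMMC replicate 2 (limma adjusted p = 0.0816) and after TMM rescaling (limma adjusted p = 0.339).

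Hoxc10, the most abundant member in MuSC, had 15.8, 16.2 and 21.3 FPKM in fresh SMMC, against 13.9 and 16.2 FPKM in MuSC, and was not called (log2 difference 0.22 ± 0.22, limma adjusted p = 0.409; chosen after its values were seen, as the highest member). Hoxa3, Hoxa7, Hoxa11, Hoxb2, Hoxc6, Hoxc11, Hoxd3 and Hoxd9 had means of 1.18 to 3.64 FPKM in fresh SMMC, against at most 0.457 FPKM in MuSC, and only Hoxa3 of them overlapped between the groups; Hoxb2, a hindbrain-level gene, had the smallest adjusted p (1.8e-05), with 2.07, 3.81 and 5.03 FPKM in fresh SMMC, against 0 and 0.0275 FPKM in MuSC. Hoxa3 and Hoxb2 passed the filter through fresh SMMC alone, so their calls are not independent of it. Hoxc4, Hoxc5, Hoxc8, Hoxc10, Hoxc13 and Hoxd8 were tested and not called. Hoxa3, Hoxc11 and Hoxd3 lost their calls without MuSC replicate 1 or without MuSC replicate 2 (limma adjusted p of 0.0644 to 0.154), and Hoxd3 also without fresh SMMC replicate 1 or 3 (0.0503 and 0.123). The calls of 6 members (Hoxa5, Hoxa9, Hoxa11, Hoxb2, Hoxc6 and Hoxd9) remained under every alternative in which they could be tested; with quantile normalization, which brings the median of all genes to -0.04, 6 members rose and 0 fell. The tenocyte, pericyte, smooth muscle, FAP, endothelial, Schwann, macrophage or dendritic and MuSC sums given above moved with this comparison. Their part in it was not tested.

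**Figure D2:**
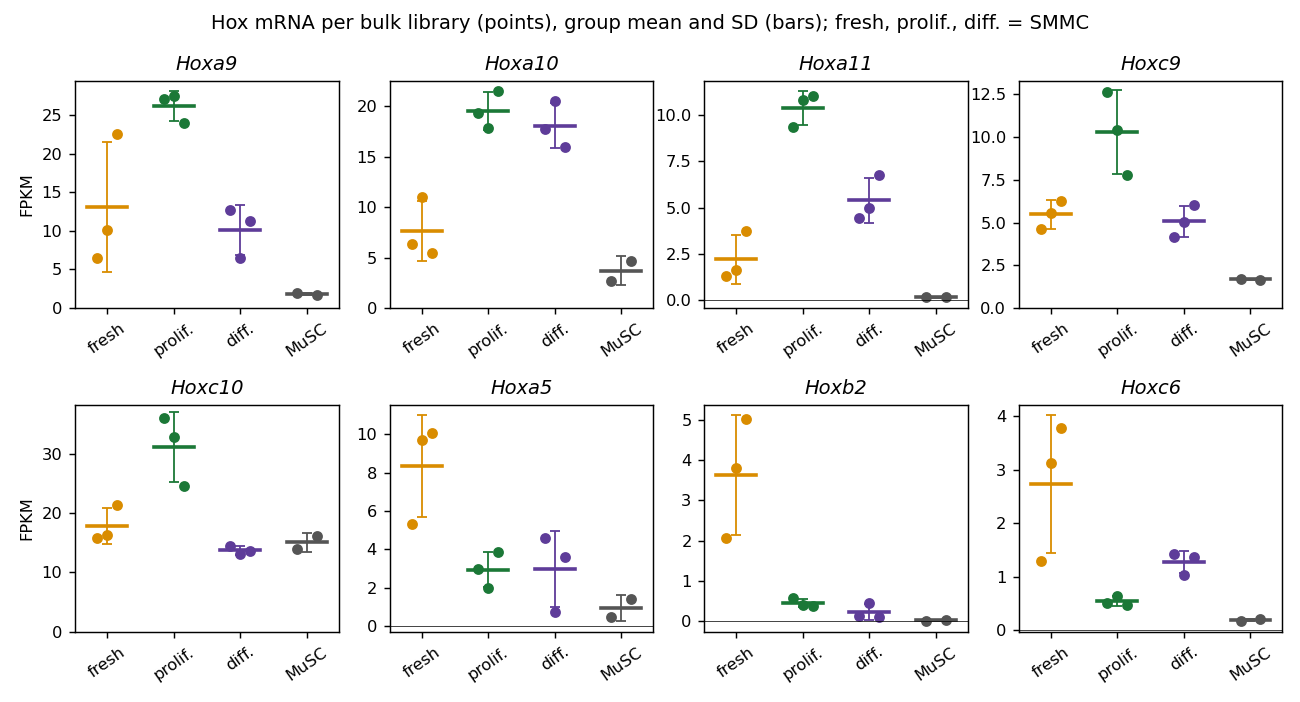
FPKM of 8 Hox genes in each bulk library (points), with the group mean (line) and SD (bar); fresh, prolif. and diff. are SMMC (3 libraries each), and MuSC has 2 libraries. The upper row and Hoxc10 are 5′ genes, with their highest means in proliferating SMMC; Hoxa5, Hoxb2 and Hoxc6 have their highest means in fresh SMMC.

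Proliferating against fresh SMMC shows what differed after 3 days of culture. Here the called genes of the Hoxa and Hoxc clusters split by position in the cluster. Of the 8 tested members of paralogous groups 9 to 13, 7 rose (Hoxa9, Hoxa10, Hoxa11, Hoxc9, Hoxc10, Hoxc11 and Hoxc13) and 1 fell (Hoxd9). Of the 11 tested members of groups 1 to 8, 0 rose and 8 fell (Hoxa3, Hoxa5, Hoxb2, Hoxc4, Hoxc6, Hoxc8, Hoxd3 and Hoxd8). Hoxa3, Hoxb2 and Hoxc4 passed the filter through fresh SMMC alone, and Hoxc13 through proliferating and differentiating SMMC alone. The directions of these members were thus favoured by the filter and add nothing to the split. In all, 16 of 19 were called, while over all genes 33.1% were called higher and 35.4% lower, 68.5% in both directions. The median log2 difference was 1.13 for groups 9 to 13, -1.19 for groups 4 to 8 and -1.16 for groups 1 to 3, against -0.06 for all genes. The medians of these groups, and the number called, include the members favoured by the filter. This split rests on the scaling for part of its calls: with quantile normalization 2 members of groups 1 to 8 rose and 4 fell, while 7 of groups 9 to 13 rose and 0 fell. With TMM rescaling the counts were as deposited, 0 and 8 for groups 1 to 8 and 7 and 1 for groups 9 to 13. All 3 tested Hoxd members and Hoxb2 fell, while the Hoxa and Hoxc clusters each held members that rose and members that fell. The 5′ members Hoxd10, Hoxd11 and Hoxd13, too low to test, averaged 0.691, 0.272 and 0.215 FPKM in fresh SMMC. In proliferating SMMC they averaged 0.0446, 0.0301 and 0 FPKM. The untested Hoxc12 went the other way, from 0.0135 to 0.247 FPKM.

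Hoxa11, a gene of the forearm and shank segment of the limb, had 9.36, 10.8 and 11.01 FPKM in proliferating SMMC, against 1.28, 1.61 and 3.73 FPKM in fresh SMMC. This was the largest rise among members (log2 difference 1.90 ± 0.27, limma adjusted p = 5e-05), and the groups did not overlap. Hoxa10 had 19.3, 17.8 and 21.6 FPKM in proliferating SMMC, against 6.32, 11.04 and 5.48 FPKM in fresh SMMC (log2 difference 1.31 ± 0.26, limma adjusted p = 0.000618). Hoxc10, which takes part in lumbar and hindlimb patterning, had 36.1, 32.8 and 24.6 FPKM in proliferating SMMC, against 15.8, 16.2 and 21.3 FPKM in fresh SMMC (log2 difference 0.77 ± 0.20, limma adjusted p = 0.00372). Every proliferating library lay above every fresh one for these genes.

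Hoxc9 had 12.7, 10.4 and 7.79 FPKM in proliferating SMMC, against 4.60, 5.56 and 6.25 FPKM in fresh SMMC (log2 difference 0.79 ± 0.22, limma adjusted p = 0.00742). Hoxa9 had 27.04, 27.5 and 23.95 FPKM in proliferating SMMC, against 6.51, 10.1 and 22.6 FPKM in fresh SMMC (log2 difference 1.11 ± 0.36, limma adjusted p = 0.015). The fresh replicate 3 value of Hoxa9 came close to the proliferating range, and the call was lost without fresh SMMC replicate 1 (limma adjusted p = 0.0753) and without fresh SMMC replicate 2 (limma adjusted p = 0.0534). Hoxc11 and Hoxc13, with means of 4.05 and 1.24 FPKM in proliferating SMMC and 1.18 and 0.00923 FPKM in fresh SMMC, also rose. Among the genes that fell, Hoxa5 had 2.99, 2.01 and 3.85 FPKM in proliferating SMMC, against 5.31, 9.70 and 10.1 FPKM in fresh SMMC (log2 difference -1.23 ± 0.41, limma adjusted p = 0.0188). Its call was lost without fresh SMMC replicate 2, without fresh SMMC replicate 3 or without proliferating SMMC replicate 2 (limma adjusted p of 0.066 to 0.0693).

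The other members that fell had means of 0.0383 to 0.785 FPKM in proliferating SMMC and 1.25 to 3.64 FPKM in fresh SMMC. Hoxb2 had the smallest limma adjusted p of them (4.77e-05, log2 difference -1.62 ± 0.23), but it passed the filter through fresh SMMC alone. Hoxa7 and Hoxc5 were among the members tested and not called. The call of Hoxc4 was lost without proliferating SMMC replicate 1 or 3 (limma adjusted p of 0.0794 and 0.0858), and that of Hoxd3 without fresh SMMC replicate 3 or without any 1 of the proliferating libraries (0.0601 to 0.118). Without fresh SMMC replicate 3, 7 members rose and 5 fell, without fresh SMMC replicate 2, 6 rose and 6 fell, and with quantile normalization 9 rose and 4 fell, against 7 and 9 as deposited. The lower tenocyte, pericyte, smooth muscle, FAP, Schwann, endothelial and macrophage or dendritic sums in proliferating SMMC, given above, moved with the members that fell. Their part was not tested. The higher MuSC sum given above and the skeletal muscle fibre genes moved with the members that rose, the fibre genes with a sum of 555 to 1507 FPKM in proliferating SMMC, against 68.05 to 132 FPKM in fresh SMMC; the part of these lists was not tested either.

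**Figure D3:**
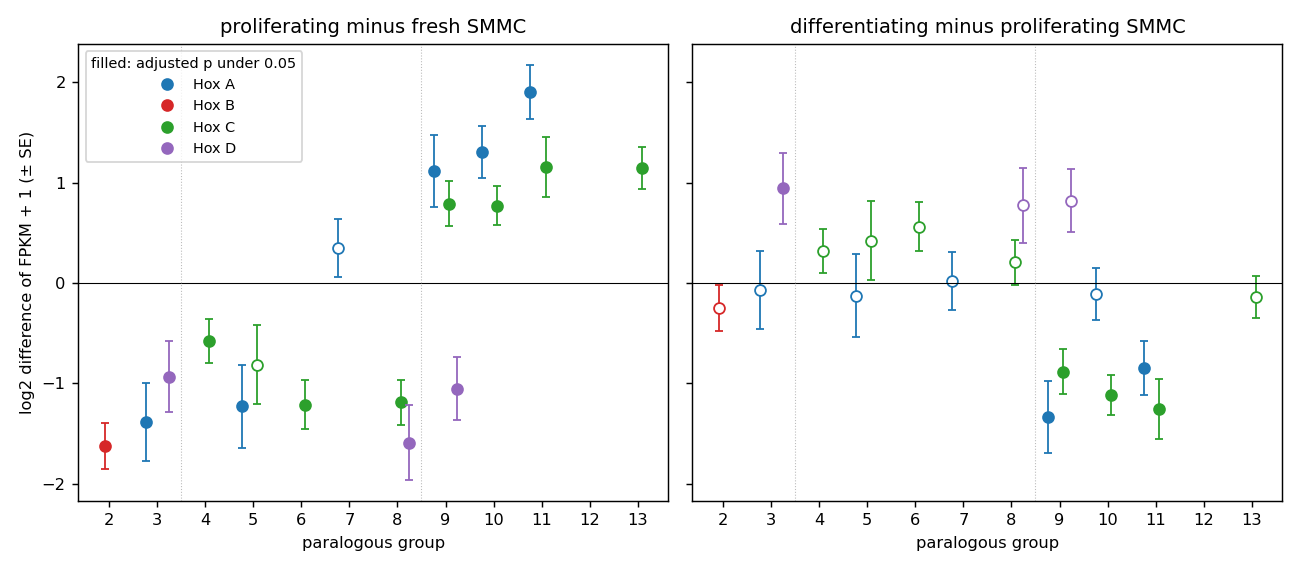
Log2 difference of FPKM + 1 with its SE for tested Hox genes of paralogous groups 2 to 13, by paralogous group (x axis) and cluster (colour); filled points have a limma adjusted p under 0.05. Left, proliferating minus fresh SMMC, where groups 9 to 13 lie above 0 except Hoxd9; right, differentiating minus proliferating SMMC, where 5 members of groups 9 to 11 were lower.

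In differentiating against proliferating SMMC, 5 members fell, all in paralogous groups 9 to 11: Hoxa9, Hoxa11, Hoxc9, Hoxc10 and Hoxc11. Hoxd3 rose, and 13 tested members were not called. Over all genes, 40.5% were called, 20.9% higher and 19.6% lower, so 6 of 19 was not above the background. Both this comparison and the one before it use the same 3 proliferating libraries, so their opposite directions are not independent of each other.

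Hoxc10 had 14.5, 13.02 and 13.6 FPKM in differentiating SMMC, against 36.1, 32.8 and 24.6 FPKM in proliferating SMMC (log2 difference -1.11 ± 0.20, limma adjusted p = 0.00068). Hoxa9 had 12.6, 6.47 and 11.3 FPKM in differentiating SMMC, against 27.04, 27.5 and 23.95 FPKM in proliferating SMMC (log2 difference -1.33 ± 0.36, limma adjusted p = 0.0104). Hoxc9 had 4.16, 5.05 and 6.00 FPKM in differentiating SMMC, against 12.7, 10.4 and 7.79 FPKM in proliferating SMMC (log2 difference -0.88 ± 0.22, limma adjusted p = 0.00734). The groups did not overlap for any of these genes. Hoxa11 had 4.44, 4.96 and 6.78 FPKM in differentiating SMMC, against 9.36, 10.8 and 11.01 FPKM in proliferating SMMC (log2 difference -0.85 ± 0.27, limma adjusted p = 0.026), but lost its call without differentiating SMMC replicate 1 or 2 and without proliferating SMMC replicate 2 or 3 (limma adjusted p of 0.0666 to 0.0928).

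Hoxa10, in contrast to its neighbours, had 17.8, 20.5 and 16.0 FPKM in differentiating SMMC, against 19.3, 17.8 and 21.6 FPKM in proliferating SMMC, with overlapping groups and no call (log2 difference -0.11 ± 0.26, limma adjusted p = 0.787; chosen after its values were seen). It was the highest member in all 3 differentiating libraries, where Hoxc10 led in all 3 proliferating ones. The rise of Hoxd3, to 0.416, 1.56 and 1.20 FPKM in differentiating SMMC against 0 to 0.0597 FPKM in proliferating SMMC, was near the threshold (limma adjusted p = 0.049) and was lost without either of differentiating replicates 2 and 3 and without each proliferating replicate (limma adjusted p of 0.0913 to 0.15). With TMM rescaling 2 members rose and 5 fell, and with quantile normalization 0 rose and 5 fell. The muscle fibre sum was 13476 to 17249 FPKM in differentiating SMMC, against 555 to 1507 FPKM in proliferating SMMC. The smooth muscle sum given above was also higher in differentiating SMMC, and the part of these lists was not tested.

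In proliferating SMMC against MuSC, 9 members rose (among them Hoxa7, Hoxa9, Hoxa10, Hoxa11, Hoxc9, Hoxc10, Hoxc11 and Hoxc13) and 2 fell (Hoxc8 and Hoxd8), while over all genes 42.7% were called higher and 25.7% lower, 68.3% in both directions. Hoxa11 was the member that differed most, with 9.36, 10.8 and 11.01 FPKM in proliferating SMMC, against 0.137 and 0.177 FPKM in MuSC (log2 difference 3.30 ± 0.30, limma adjusted p = 1.02e-06). Hoxa9 had a log2 difference of 3.26 ± 0.40 (means 26.2 and 1.84 FPKM), Hoxa10 of 2.16 ± 0.29 (19.6 and 3.69 FPKM), Hoxc9 of 2.05 ± 0.25 (10.3 and 1.68 FPKM) and Hoxc10 of 0.99 ± 0.22 (31.2 and 15.05 FPKM), with limma adjusted p of at most 0.00138. This comparison shares its libraries with those above. Without MuSC replicate 1 the call of Hoxd8 was lost (limma adjusted p = 0.468), without proliferating SMMC replicate 3 it was lost too (limma adjusted p = 0.0637), and without MuSC replicate 2 that of Hoxc8 was lost (limma adjusted p = 0.0954); Hoxc10 was not called after TMM rescaling (limma adjusted p = 0.176). The bulk libraries used here include no cultured MuSC, so the 3 days of culture and the cell type cannot be told apart here.

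Hox proteins bind DNA with TALE homeodomain partners of the Pbx, Meis and Pknox families. Of the 9 in the list, all tested, 3 rose and 1 fell in fresh SMMC against MuSC, with a list median of 0.11 on the log2 scale against 0.45 for all genes; 44.4% of the list was called, below the 59.7% of all genes. Meis3 averaged 11.6 ± 4.28 FPKM in fresh SMMC and 1.28 ± 0.106 FPKM in MuSC (SD, n = 3 and 2), and Pknox1 averaged 11.6 ± 1.74 FPKM and 37.1 ± 12.9 FPKM. The call of Pknox1 was lost without MuSC replicate 1 (limma adjusted p = 0.0918). In proliferating against fresh SMMC 1 rose and 2 fell (list median -0.39, all genes -0.06), 33.3% of the list against 68.5% of all genes. Pknox2 rose to a mean of 30.2 ± 11.6 FPKM in proliferating SMMC, against 6.95 ± 0.962 FPKM in fresh SMMC, and in differentiating SMMC it fell to 10.9 ± 6.58 FPKM (n = 3 each).

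Of 30 other regulators of limb position and patterning, 24 were tested; 13 rose and 4 fell in fresh SMMC against MuSC, and 9 rose and 11 fell in proliferating against fresh SMMC, with list medians of 1.07 and -0.59, against 0.45 and -0.06 for all genes. That was 70.8% and 83.3% of those tested, against 59.7% and 68.5% of all genes. The marker sums of tenocytes, FAPs, pericytes and endothelial cells given above moved in the same comparisons, and their part was not tested. Meox2, a homeobox gene of somites and limb muscle, had 46.6, 84.2 and 103 FPKM in fresh SMMC, against 0 and 0.0202 FPKM in MuSC, and 0.617, 0.706 and 0.932 FPKM in proliferating SMMC. Msx1, Tbx2 and Tbx18 were the other leading genes that rose in fresh SMMC. In differentiating against proliferating SMMC 4 rose and 4 fell (33.3%, against 40.5% of all genes); Tbx15 averaged 40.5 ± 6.56 FPKM in differentiating and 5.28 ± 3.89 FPKM in proliferating SMMC, and Tbx2 averaged 0.273 ± 0.316 FPKM and 7.27 ± 1.67 FPKM (n = 3 each). The genes that set forelimb and hindlimb apart were chosen after their values were seen. Tbx4, the hindlimb gene, had 0.176, 0.157 and 0.776 FPKM in fresh SMMC, against 6.31 and 4.397 FPKM in MuSC (log2 difference -2.23 ± 0.29, limma adjusted p = 3.33e-05). Pitx1, which acts upstream of Tbx4 in the hindlimb bud, had 7.46, 5.21 and 3.06 FPKM in fresh SMMC and 0 in both MuSC libraries, and the forelimb gene Tbx5 had 1.43, 0.456 and 1.23 FPKM in fresh SMMC and 0 in both MuSC libraries.

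Polycomb proteins keep Hox genes silent, and 24 of 25 listed were tested. In fresh SMMC against MuSC 9 rose and 4 fell, in proliferating against fresh SMMC 11 rose and 8 fell, and in differentiating against proliferating SMMC 0 rose and 11 fell, with list medians of 0.48, -0.04 and -0.47. The shares called were 54.2%, 79.2% and 45.8%, against 59.7%, 68.5% and 40.5% of all genes, so they lay near the background, though in differentiating SMMC all of those called were lower, against 19.6% lower and 20.9% higher over all genes. Ezh2, the H3K27 methyltransferase of Polycomb repressive complex 2 and a gene of dividing cells, averaged 8.45 ± 0.615 FPKM in fresh SMMC, 31.1 ± 5.80 FPKM in proliferating SMMC, 4.71 ± 0.433 FPKM in differentiating SMMC (n = 3 each) and 19.0 ± 4.56 FPKM in MuSC (n = 2). Jarid2, which joins that complex, averaged 7.68 ± 3.18 FPKM in fresh SMMC and 54.1 ± 6.26 FPKM in MuSC. Of 13 Trithorax, MLL and H3K27 demethylase genes, all tested, 3 rose and 6 fell in fresh SMMC against MuSC, 5 rose and 7 fell in proliferating against fresh SMMC, and 0 rose and 7 fell in differentiating against proliferating SMMC, with list medians of -0.23, -0.45 and -0.61. The shares called were 69.2%, 92.3% and 53.8%, against the same 59.7%, 68.5% and 40.5% of all genes, whose medians were 0.45, -0.06 and 7e-04. Kdm6b, an H3K27 demethylase, had 15.5, 17.4 and 18.8 FPKM in fresh SMMC, against 520 and 683 FPKM in MuSC (log2 difference -5.04 ± 0.22, limma adjusted p = 7.51e-09), and 0.347, 0.507 and 0.544 FPKM in proliferating SMMC. Ash2l and Dpy30, shared subunits of the MLL complexes, averaged 159 ± 13.5 and 21.4 ± 2.88 FPKM in proliferating SMMC, against 19.5 ± 8.90 and 3.58 ± 0.939 FPKM in fresh SMMC.

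Retinoic acid activates 3′ Hox genes in the embryo. Of 16 genes of its supply and response, 15 were tested; 13 rose and 0 fell in fresh SMMC against MuSC, and 0 rose and 10 fell in proliferating against fresh SMMC, with list medians of 2.39 and -1.71 on the log2 scale, against 0.45 and -0.06 for all genes. Over all genes 41.7% were called higher and 18% lower in the first comparison, and 33.1% higher and 35.4% lower in the second. The FAP sum moved the same way, with 4011 to 6930 FPKM in fresh SMMC, 871 and 1086 FPKM in MuSC and 41.7 to 51.7 FPKM in proliferating SMMC, as did the tenocyte, pericyte and endothelial sums, and their part was not tested. Aldh1a1, which makes retinoic acid, had 42.4, 27.4 and 31.3 FPKM in fresh SMMC, against 2.99 and 2.09 FPKM in MuSC, and 0 to 0.616 FPKM in proliferating SMMC. Stra6, Rara and Rxrg also rose in fresh SMMC, and Stra6, Crabp2 and Rdh10 fell in proliferating SMMC. In differentiating against proliferating SMMC 4 rose and 0 fell (26.7%, against 40.5% of all genes), led by Rxrg with 10.1 ± 0.229 FPKM in differentiating and 2.08 ± 0.851 FPKM in proliferating SMMC (n = 3 each).

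Of 24 listed neighbours and non-coding genes of the clusters found in the table, 11 were tested. In fresh SMMC against MuSC 6 rose and 3 fell, in proliferating against fresh SMMC 5 rose and 2 fell, and in differentiating against proliferating SMMC 4 rose and 1 fell, with list medians of 0.75, 0.40 and 0.04. The shares called were 81.8%, 63.6% and 45.5%, against 59.7%, 68.5% and 40.5% of all genes, so those of the last 2 comparisons lay near the background. Hotairm1, a transcript of the Hoxa cluster, averaged 1.38 ± 0.506 FPKM in fresh SMMC and 0.0245 ± 0.00964 FPKM in MuSC. Hoxa11os, the antisense transcript of Hoxa11, had 11.8, 8.52 and 5.67 FPKM in proliferating SMMC, against 1.34, 1.13 and 1.90 FPKM in fresh SMMC, and 2.77, 2.29 and 2.99 FPKM in differentiating SMMC. No source used here states whether the counting used strand, so reads of Hoxa11 and Hoxa11os cannot be told apart. Hotair, a transcript of the Hoxc cluster antisense to the interval of Hoxc11 and Hoxc12 and chosen after its values were seen, had 5.04, 1.75 and 0.740 FPKM in fresh SMMC, against 6.43 and 14.9 FPKM in MuSC (log2 difference -1.83 ± 0.50, limma adjusted p = 0.00746). Mtx2, which lies beside the Hoxd cluster and codes for a mitochondrial protein, averaged 52.6 ± 2.21 FPKM in proliferating SMMC, against 8.78 ± 3.09 FPKM in fresh SMMC, while the 3 tested Hoxd members fell. In proliferating SMMC against MuSC, where 42.7% of all genes were called higher and 25.7% lower, 68.3% in all, 3 of 9 tested TALE genes rose and 3 fell (66.7% called), 9 of 24 limb regulators rose and 3 fell (50.0%), and 13 of 24 Polycomb genes rose and 4 fell (70.8%). Of 13 Trithorax group genes 5 rose and 7 fell (92.3%), of 15 retinoic acid genes 5 rose and 2 fell (46.7%), and of 11 neighbours 8 rose and 0 fell (72.7%).

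The single-cell tables held 6144 and 6297 cells with 19353328 and 15507938 UMIs, at a median of 2516 and 2027 UMIs per cell. They list 28 and 29 of the 39 members, Hoxd11 in the second alone, with 3111 and 2310 Hox UMIs. The libraries share 53 cell barcodes. Cells were clustered without the Hox genes and named from fixed markers: MuSC-like (377 and 577 cells), FAP-like (861 and 744), tenocyte-like (318 and 507), mural-like, meaning pericytes and smooth muscle (216 and 313), endothelial-like (1335 and 1696), Schwann-like (30 and 76) and blood-like (2834 and 2229). A cluster of 244 cells, with endothelial markers but led by Cytl1, Gja4 and Stmn2, stayed unnamed. An endothelial-like cluster led by interferon response genes (Ifit1, Rsad2 and Isg15) held 65 and 712 cells. No class corresponding to SMMC was defined. Levels are in CPM, the UMIs of a gene scaled to a common UMI total for each class and library, with exact 95% Poisson intervals that cover counting error only.

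The cell classes differed in which Hox cluster they used. Summed over all members, the level was 169 and 141 CPM in FAP-like, 207 and 187 CPM in tenocyte-like, 490 and 261 CPM in mural-like, 454 and 327 CPM in endothelial-like, 13.2 and 19.0 CPM in blood-like, and 138 and 86.0 CPM in MuSC-like cells. Hoxc members took 61.7% and 58.9% of the Hox UMIs in FAP-like, 50.9% and 49.0% in tenocyte-like and 78.7% and 72.2% in MuSC-like cells, but 0.638% and 0.969% in endothelial-like cells. Hoxb members took 55.0% and 43.1% in endothelial-like cells, against 0.546% and 2.26% in MuSC-like cells. This share was not particular to endothelial-like cells. It was 56.2% and 51.1% in blood-like cells, on 59 and 48 Hoxb UMIs, and 59.4% and 49.5% in the unnamed cluster with endothelial markers. Mural-like cells had 23.6% and 12.2%, FAP-like cells 4.06% and 3.10%, and tenocyte-like cells 1.88% and 3.06%. In Schwann-like cells it was 28.6% and 66.7%, on 4 and 14 Hoxb UMIs. Paralogous groups 9 to 13 took 9.17% and 12.8% in endothelial-like cells, 62.9% and 69.5% in FAP-like, 71.2% and 71.6% in tenocyte-like and 68.9% and 67.7% in MuSC-like cells.

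**Figure D4:**
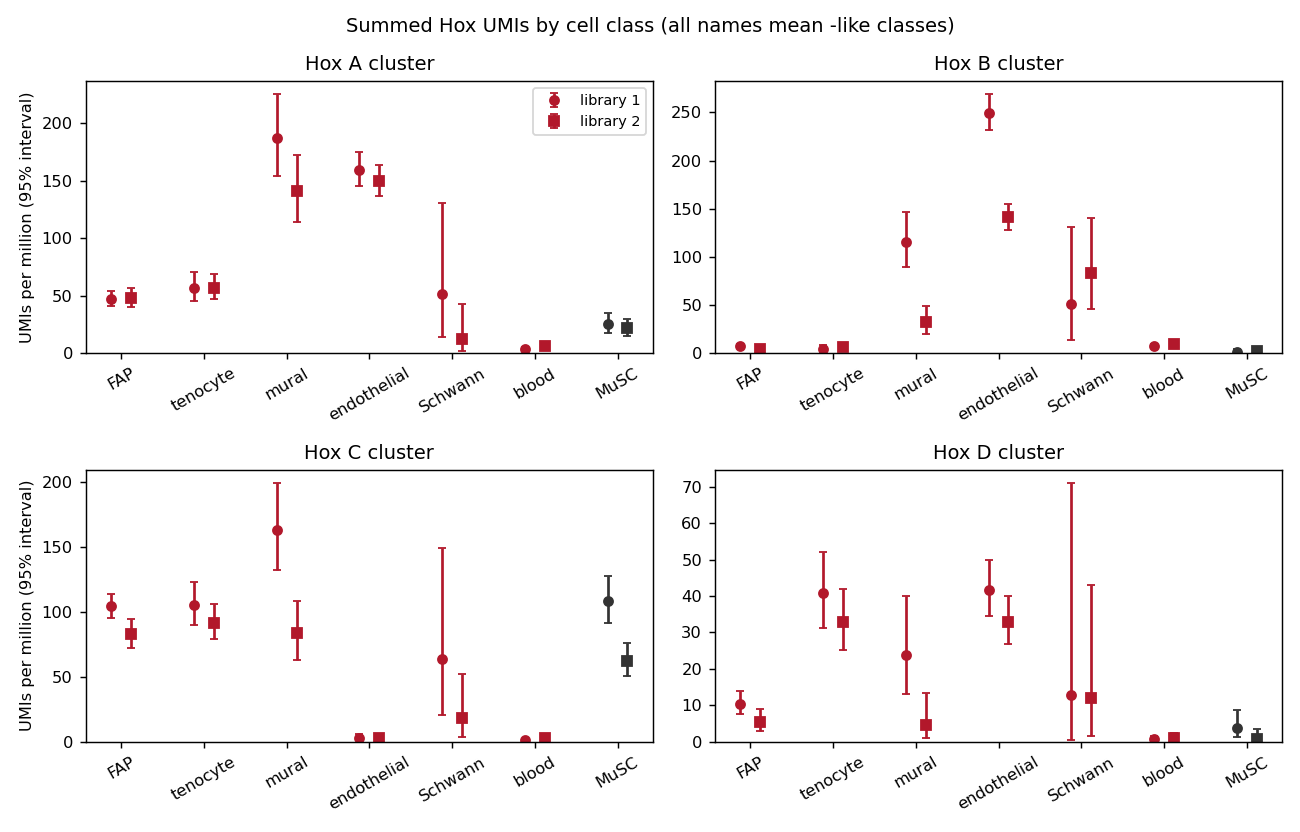
Summed CPM of each Hox cluster by cell class, 1 point per library with its exact 95% Poisson interval; the names stand for the -like classes and MuSC-like cells are in dark grey at the right. Hoxb is highest in endothelial-like cells, and Hoxc is near 0 in endothelial-like and blood-like cells.

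Tests of each class against MuSC-like cells used UMI sums per class and library in edgeR's quasi-likelihood test, adjusted over 11902 genes, of which 24 were Hox members. A gene was tested over all classes if it reached 5.77 CPM in at least 2 of the 14 sums of a class and library and 15 UMIs in all, so a member could pass through any class. Hoxb5 reached that level in 1 sum alone and was left out, with 17.0 and 5.70 CPM in endothelial-like cells (65 UMIs) against 0 UMIs in MuSC-like cells, at least 10.5-fold higher on a floor of 3 UMIs over both libraries. Without that filter it was called higher in endothelial-like cells (edgeR adjusted p = 0.000266 over 13883 genes), and so was Hoxa4 (edgeR adjusted p = 0.0322). In endothelial-like cells 15 members rose and 6 fell, while over all genes 20.7% were called higher and 17.9% lower, 38.6% in both directions. All 7 tested Hoxb members (Hoxb2, Hoxb3, Hoxb4, Hoxb6, Hoxb7, Hoxb8 and Hoxb9) rose, with Hoxa2, Hoxa3, Hoxa5, Hoxa7, Hoxd4, Hoxd8, Hoxd9 and Hoxd10. Hoxa2, Hoxb3, Hoxb8, Hoxb9, Hoxd4 and Hoxd10 were among those that needed the endothelial-like sums to pass the filter. Their direction was thus favoured by the filter, and the count of members that rose includes them. Of the 7 tested Hoxc members Hoxc4, Hoxc6, Hoxc8, Hoxc9 and Hoxc10 fell and 0 rose, and Hoxa10 fell. The calls of Hoxb9 and Hoxd10 were lost in DESeq2 (adjusted p of 0.233 and 0.0686).

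Hoxb4, known from blood stem cell expansion, had 99.9 and 56.7 CPM in endothelial-like cells, against 0.755 and 0 CPM in MuSC-like cells (455 UMIs against 1; edgeR adjusted p = 5.7e-08). The ratio was 221, with a counting interval of 39.4 to 8730. Hoxb7 had 33.3 and 21.2 CPM in endothelial-like cells and 0 UMIs in MuSC-like cells, which makes it at least 25.7-fold higher when 3 UMIs over both libraries are taken as the floor. Hoxb8, with 28.2 and 20.3 CPM against 0 UMIs, was at least 23.0-fold higher on the same floor. Hoxa5 had 65.9 and 82.0 CPM in endothelial-like cells, against 6.04 and 1.94 CPM in MuSC-like cells (log2 fold change 4.12 ± 0.43, edgeR adjusted p = 2.74e-07). Hoxa7 had 53.6 and 35.1 CPM in endothelial-like cells, against 3.77 and 7.11 CPM in MuSC-like cells (log2 fold change 2.83 ± 0.40, edgeR adjusted p = 1.43e-05).

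Hoxc10 ran the other way, with 0.724 and 0 CPM in endothelial-like cells, against 42.3 and 22.6 CPM in MuSC-like cells (2 UMIs against 91; ratio 0.0107, counting interval 0.00127 to 0.0396; edgeR adjusted p = 2.12e-07). Hoxc9 had 0.362 and 1.58 CPM in endothelial-like cells, against 37.0 and 22.0 CPM in MuSC-like cells (log2 fold change -4.89 ± 0.55, edgeR adjusted p = 7.95e-07). Hoxc8 had 0 UMIs in endothelial-like cells, against 12.1 and 7.11 CPM in MuSC-like cells, and was at least 18.6-fold lower on the floor of 3 UMIs. Summed over the cluster, Hoxc was 2.90 and 3.16 CPM in endothelial-like cells and 109 and 62.1 CPM in MuSC-like cells.

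In mural-like cells 10 members rose and 0 fell, while over all genes 17.6% were called higher and 12.1% lower, 29.7% in both directions. They were Hoxa3, Hoxa5, Hoxa7, Hoxa9, Hoxa10, Hoxb2, Hoxb4, Hoxc6, Hoxd4 and Hoxd9. Hoxa9 had 49.4 and 28.8 CPM in mural-like cells, against 3.02 and 3.23 CPM in MuSC-like cells (log2 fold change 3.40 ± 0.58, edgeR adjusted p = 0.000173). Hoxa7 had 64.7 and 28.8 CPM, against 3.77 and 7.11 CPM in MuSC-like cells (edgeR adjusted p = 9.53e-05). Hoxc6 had 52.8 and 31.8 CPM, against 10.6 and 3.23 CPM in MuSC-like cells (edgeR adjusted p = 0.000274). Hoxa5 had 28.9 and 28.8 CPM, against 6.04 and 1.94 CPM in MuSC-like cells (edgeR adjusted p = 0.000511).

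The remaining mural-like members were less even. Hoxb2 had 49.4 and 3.03 CPM in mural-like cells, against 0 and 0.647 CPM in MuSC-like cells, so library 1 set its level, and Hoxb4 had 45.9 and 12.1 CPM, against 0.755 and 0 CPM. Hoxa3 had 5.11 and 16.7 CPM in mural-like cells, against 1.51 and 0.647 CPM in MuSC-like cells, and Hoxa10 had 32.3 and 25.8 CPM, against 9.05 and 8.41 CPM. Hoxd4 rested on 7 UMIs, all in library 1, and its call was lost in DESeq2 (adjusted p = 0.0507); Hoxd9 rested on 5 UMIs. Hoxc9 and Hoxc10 were not called. The 12 endothelial marker genes summed to 5432 and 3368 CPM in mural-like cells, 146 and 566 CPM in MuSC-like cells and 25166 and 18108 CPM in endothelial-like cells, and their part in the mural-like levels of Hoxa5, Hoxa7, Hoxb2 and Hoxb4 was not tested. Hoxc6, called in mural-like cells, was at 0.724 and 0.316 CPM in endothelial-like cells.

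In tenocyte-like cells, named for the fibroblasts of tendon, 5 members rose (Hoxa9, Hoxa10, and 3 of the 4 tested Hoxd members: Hoxd8, Hoxd9 and Hoxd10) and 0 fell, while over all genes 14.8% were called higher and 10.3% lower, 25% in both directions. Hoxd9 had 16.2 and 10.9 CPM in tenocyte-like cells and 0 UMIs in MuSC-like cells, at least 12.7-fold higher on the floor of 3 UMIs. Hoxd8 had 15.5 and 9.38 CPM in tenocyte-like cells, against 3.02 and 0.647 CPM in MuSC-like cells (log2 fold change 2.76 ± 0.63, edgeR adjusted p = 0.003). Hoxa10 had 29.1 and 29.2 CPM, against 9.05 and 8.41 CPM in MuSC-like cells (log2 fold change 1.72 ± 0.39, edgeR adjusted p = 0.00267). Hoxa9 had 9.06 and 16.2 CPM, against 3.02 and 3.23 CPM in MuSC-like cells (edgeR adjusted p = 0.0198), and Hoxd10 had 7.77 and 3.13 CPM, against 0.755 and 0 CPM, a call lost in DESeq2 (adjusted p = 0.103). Hoxd10 needed the tenocyte-like sums to pass the filter. Its direction was thus favoured by the filter, and the count of members that rose in tenocyte-like cells includes it.

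In FAP-like cells 2 members rose and 0 fell, while over all genes 17.8% were called higher and 12.4% lower, 30.3% in both directions; at an unadjusted p under 0.05, 3 passed. Hoxa10 had 23.0 and 25.1 CPM in FAP-like cells, against 9.05 and 8.41 CPM in MuSC-like cells (log2 fold change 1.42 ± 0.38, edgeR adjusted p = 0.00737), and Hoxd9 had 2.43 and 1.82 CPM against 0 UMIs, at least 2.11-fold higher on the floor of 3 UMIs. Hoxc10 had 39.2 and 31.6 CPM in FAP-like and 42.3 and 22.6 CPM in MuSC-like cells, and Hoxc9 had 22.3 and 22.9 CPM in FAP-like and 37.0 and 22.0 CPM in MuSC-like cells. These members were not called, and their log2 fold changes were 0.12 ± 0.34 and -0.40 ± 0.36.

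In blood-like cells 1 member rose and 12 fell, while over all genes 23% were called higher and 22.4% lower, 45.4% in both directions. Hoxb4 rose, with 6.39 and 6.08 CPM in blood-like cells, against 0.755 and 0 CPM in MuSC-like cells (81 UMIs against 1; ratio 18.0, counting interval 3.14 to 720; edgeR adjusted p = 0.00132). Hoxc10 had 0.376 and 1.22 CPM in blood-like cells, against 42.3 and 22.6 CPM in MuSC-like cells, and Hoxc9 had 0.376 and 0.810 CPM, against 37.0 and 22.0 CPM. Hoxa10 had 0.1253 and 0.405 CPM, against 9.05 and 8.41 CPM in MuSC-like cells. Hoxa5, Hoxa7, Hoxa9, Hoxc4, Hoxc5, Hoxc6, Hoxc8, Hoxc11 and Hoxd8 also fell, at no more than 2.13 CPM in blood-like cells; Hoxc5 rested on 3 UMIs in MuSC-like cells and 0 in blood-like cells. Without the library block the calls of Hoxa5 and Hoxa7 were lost (edgeR adjusted p of 0.0565 and 0.0581). Schwann-like cells held 14 and 21 Hox UMIs in all (179 and 125 CPM, intervals 97.7 to 300 and 77.4 to 191 CPM) and were not compared.

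**Figure D5:**
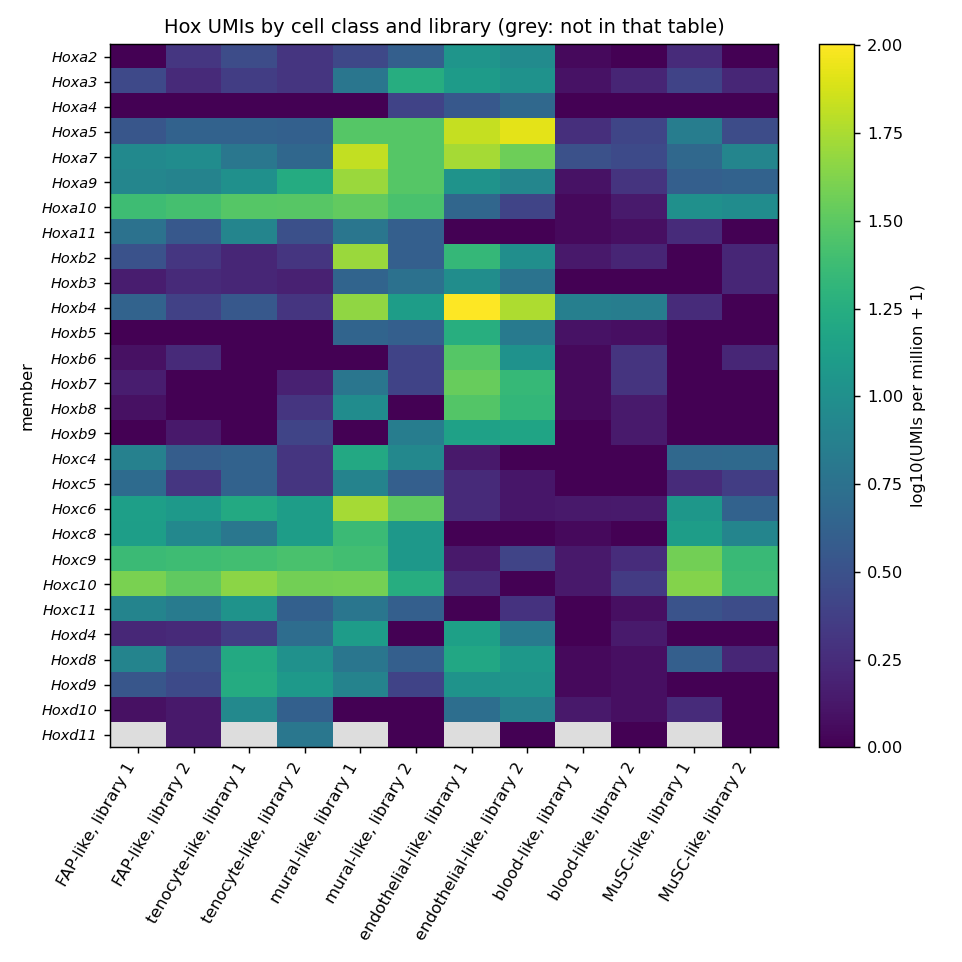
Level of Hox genes listed in the single-cell tables, as log10 of CPM + 1, by cell class and library; grey marks Hoxd11, not listed in library 1. Endothelial-like columns are bright for Hoxa5, Hoxa7 and Hoxb4 to Hoxb9 and dark for Hoxc genes, while FAP-like, tenocyte-like and MuSC-like columns are bright for Hoxc9 and Hoxc10.

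The bulk and single-cell levels can be set side by side, though not tested against each other. In bulk MuSC and in MuSC-like cells, Hoxc10 was the highest member (13.9 and 16.2 FPKM, and 42.3 and 22.6 CPM). Hoxc9 came close to it in MuSC-like cells (37.0 and 22.0 CPM) but not in bulk MuSC (1.70 and 1.66 FPKM). Hoxc11 had 6 UMIs in MuSC-like cells and 0 FPKM in both bulk MuSC libraries. The 2 libraries of MuSC-like cells had 0 UMIs for Hoxb7, Hoxb8, Hoxb9, Hoxd4 and Hoxd9, members that bulk MuSC listed at 0 to 0.120 FPKM. Hoxb2 and Hoxa5, called higher in fresh SMMC than in MuSC, were called higher in endothelial-like and mural-like than in MuSC-like cells, and Hoxa10, called higher in fresh SMMC, was called higher in FAP-like, tenocyte-like and mural-like cells. Hoxa3, Hoxa7, Hoxa9, Hoxc6 and Hoxd9, also called higher in fresh SMMC, were called higher in mural-like cells as well. Hoxa10 and Hoxc6 were called lower in endothelial-like cells. Hoxc9, called higher in fresh SMMC, was not called in mural-like, tenocyte-like or FAP-like cells and was called lower in endothelial-like cells. Some members with UMIs in these classes stayed low in fresh SMMC. Hoxb4 had 99.9 and 56.7 CPM in endothelial-like and 45.9 and 12.1 CPM in mural-like cells, but 0.0432 to 0.236 FPKM in fresh SMMC. Hoxb8 had 28.2 and 20.3 CPM in endothelial-like cells and averaged 0.0079 FPKM in fresh SMMC. Hoxa11, the member that differed most between proliferating SMMC and MuSC, did not pass the filter in single cells, where it reached the level needed in 1 sum. It had 28 UMIs in FAP-like and 15 in tenocyte-like cells, against 1 in MuSC-like cells, with ratios of 11.1 (counting interval 1.83 to 452) and 12.4 (1.91 to 524). Without the filter its edgeR adjusted p was 0.0576 in FAP-like and 0.0485 in tenocyte-like cells.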

How the data were processed

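Bulk values are FPKM that the authors deposited for 11 libraries; per the submitters' processing notes the tools included HISAT2 2.1.0, SAMtools 1.3.1 and StringTie with the mm10 build. The table gives no read totals, so depth behind an FPKM is unknown; the total FPKM per library was 464441 to 577580. Another 4 FPKM columns match no sample here and were not used. Single-cell values are UMI counts per gene and cell as deposited, already filtered for cells; the notes name Cell Ranger 2.2.0, STAR 2.5.1b and Seurat 2.3.4 with mm10.

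From these, log2(FPKM + 1) was tested with limma 3.58.1 (1 mean per group over all 11 libraries, 7 residual degrees of freedom, eBayes with a trend) for genes that reached 1 FPKM in 2 or more libraries. Single cells were required to have 200 genes and at most 20% mitochondrial UMIs, which removed 0 cells; 2000 variable genes without Hox, 30 principal components, 15 neighbours and Leiden resolution 1 (scanpy 1.11.5, leidenalg 0.10.2) gave 28 clusters. Scrublet called 54 doublets (0.879%) in library 1 and 4 (0.0635%) in library 2, and the called cells were left out. The number in library 2 was too low for the caller to have worked, so doublets remain there. How many doublets remain in library 1 is not known. UMI counts were summed per class and library (20 cells at least) and tested with edgeR 4.0.16, with the library as a block; DESeq2 1.42.0 was an alternative. Tests are two-sided at an adjusted p of 0.05. Both were tried on simulated data with changes planted only in well-expressed genes, so the simulation does not cover low members. Intervals are exact Poisson or, for ratios, exact binomial at 95%, and cover counting error only.

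The members, gene lists and tests were chosen with earlier results of these data known. The genes given with a value in every library are called members whose higher group averaged 5 FPKM or more (at most 12), per single-cell comparison up to 8 members by adjusted p, and per other list up to 4; others are named as chosen after their values were seen. Counts cover whole lists, and some genes in them are not reported here. Replicates of a group were distinct (Spearman correlation across genes 0.9335 to 0.9622, none with identical values).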

Additional observations from a re-analysis of the deposited data

How the results depend on the processing

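Of 1953 log2 differences of single called genes recomputed for the bulk comparisons, 1850 kept their direction and call, 102 kept only their direction and 1 reversed: Hoxc4 in proliferating against fresh SMMC was at 0.0274 with quantile normalization. A filter at 10 FPKM left 5 members to test, so no more than 5 could be called. It called 4 in fresh SMMC against MuSC, 5 in proliferating against fresh SMMC and 5 in proliferating SMMC against MuSC. Quantile normalization called 6 in fresh SMMC against MuSC; the cause was not tested, though the median of all genes moved to -0.04 with it. Leaving out each library in turn gave 9 to 14 called members in fresh SMMC against MuSC, 12 to 16 in proliferating against fresh SMMC, 4 to 5 in differentiating against proliferating SMMC and 10 to 11 in proliferating SMMC against MuSC. Where a left-out library leaves 1 MuSC, that library is assumed to vary like the other groups. Deviations from the group means had correlations of -0.128 to 0.1418 between libraries with the same replicate number. Between libraries with other numbers they were -0.2633 to 0.2881. With groups of 2 or 3 libraries these values cannot decide whether the numbers pair libraries, and the labels do not say. With the replicate block 11, 16, 6 and 11 members were called, in the order above. Of 407 single-cell log2 fold changes recomputed, 346 kept their direction and call or lay within 1 SE, 9 kept only their direction and 0 reversed. The other 52 kept their direction but moved by more than 1 SE with 1 library left out, 28 without library 1 and 24 without library 2; such values have no test. Clustering with the Hox genes kept ended the calls of Hoxd4 in mural-like cells (adjusted p = 0.0515) and Hoxa5 in blood-like cells (adjusted p = 0.0665), and Hoxd4 also lost its call without the library block (adjusted p = 0.0678). The single-cell counts of called members stayed within 1.5 times under every alternative run, but Hoxd4 in mural-like cells has no value without library 1. The 39 members include 20 too low to test in bulk, and only 2 libraries limit the single-cell tests. The median log2 difference of all genes was 0.45 as deposited and 0.04 with TMM rescaling in fresh SMMC against MuSC, and 0.36 and -0.01 in proliferating SMMC against MuSC.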
